A study of Mus musculus with 8 samples.

Results

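Solute carriers are membrane proteins that move nutrients, ions, metals and metabolites across the plasma membrane and the membranes of mitochondria, vesicles and the Golgi. Each numbered Slc family groups carriers that are related in sequence, and the Slco families hold the organic anion transporting polypeptides. In cartilage they are known above all for supplying nucleotide sugars, sulfate, phosphate, glucose and amino acids to cells that secrete large amounts of sulfated matrix. Genes were taken as members when their symbol began with Slc or Slco and a digit, and each was represented by its brightest probe. By this rule 133 of the 8102 genes that could be named on the arrays were solute carrier genes. The RefSeq gene table of mouse holds 399 genes with such symbols, so the counts below cover only part of them. Intensities could be joined to 116 of them, among 7111 joined genes, and 75 passed the filter on dim probes, among 4890 named genes that passed. The filter asked for a detection value above 0.95 on at least 3 of the 8 arrays, whichever group they belonged to. The other 17 genes could not be joined to a single row of intensities. Every row that could be theirs had an intensity of at most 2.4 and was detected on no array. Detection shares given below are of joined genes and leave these undetected carriers out. Slc9a3r1, a scaffold protein, and Slc7a6os, a nuclear factor, carry the name without being carriers.

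Expression was measured with Illumina WG-6 bead arrays in EGFP-positive cells sorted from the vertebral column of mouse embryos at E12.5, on the mixed C57BL/6J;129 background. In the 4 WT samples EGFP followed an intact Sox9 gene behind an internal ribosome entry site, and in the 4 HOMO samples EGFP replaced Sox9, which encodes a master regulator of chondrocyte identity. The HOMO cells came from chimaeric embryos, an origin that cannot be told apart from the genotype. The study's methods describe the replicates as biological, but they name another version of the array than the labels do, so whether these are the arrays the study reports is open. Sox9 had no named probe and was not analysed here.

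The arrays of the 2 groups differed in brightness. The WT arrays had a mean intensity of 328.9 ± 33.1 (SD, n = 4) and the HOMO arrays one of 7.88 ± 2.43 (SD, n = 4), a ratio of 41.7. The detected share of probes was 43.7% to 45.8% in WT and 15.5% to 20.2% in HOMO. Brightness and genotype therefore cannot be told apart, and every difference given here is relative to the distribution of its own array. Cartilage markers were present: 7 of the 9 joined were detected on every WT array and Matn3 on none, and their summed intensity was 21350 to 30498 in WT and 47.2 to 139.0 in HOMO. Neuron markers were present too, 9 of 11 on every WT array with Nefl on none, and their sum was 3369 to 12247 in WT and 50 to 65.1 in HOMO. The remaining neuron marker, Snap25, went against the sum. It was detected on 2 WT arrays and every HOMO array, at 15.5 to 25.4 in WT and 16.1 to 19.3 in HOMO. The parts played by brightness and by other cell types in the results below were not tested. In sorted bulk samples, fewer cells of a type and less RNA per cell cannot be told apart.

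The promoters of the kept carriers were searched for the heptamer that Sox proteins recognise, since WT and HOMO differed in a Sox factor. The letters searched were AACAAAG and the 7 other spellings that arise when its first, second or sixth letter is A or T, on both strands, in RefSeq promoter windows on GRCm38.p6 that run from 250 bases before to 50 bases after a gene start. Windows existed for 86 of the 116 joined carriers. A match was present in 14 of 56 kept carriers (25%), where 27.4% of all 27025 genes with a window held one. Windows of 3 carriers described below are shown, 5′ to 3′ on the strand of the motif, which is in capitals.
Slco1a5, window 6:142278997-142279021: caataagaaATCAAAGgagacagta
Slco1a5, window 6:142323059-142323083: agttatataAACAAAGatctcttta
Slc39a10, window 1:46925938-46925962: tgttgggagTTCAAAGagtaaacta
Slc39a10, window 1:46925977-46926001: gttggacaaAACAAAGacagtttcc
Slc6a9, window 4:117855479-117855503: caagccggaAACAAAGgggcctgtg
The first motif shown for Slco1a5 and for Slc39a10 lay on the plus strand, and the other 3 motifs on the minus strand. These genes stand for different outcomes on the arrays, as Slco1a5 and Slc6a9 were called higher and Slc39a10 lower in HOMO. Both Slco1a5 windows belong to separate starts of the same gene. A match says only that these letters are present.

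Detection in WT cells came first. Of the 116 joined carriers, 65 (56%) were detected on every WT array and 36 on none, against 63.4% of all joined named genes on every WT array. The families of nucleotide sugar and sugar phosphate carriers stood at one end, with 10 of 10 members detected on every WT array. Metal carriers followed with 9 of 11 joined members, and mitochondrial carriers with 12 of 18. Members of the sugar carrier families stood at the other end with 2 of 9, next to monocarboxylate and organic acid carriers with 2 of 7 and organic anion and cation carriers with 3 of 10. Classes follow the family, so a member can carry something else, as the iodide carrier Slc5a5 does within a sugar family. Among the carriers detected on no WT array were Slc7a11, the cystine and glutamate exchanger, Slc7a1, an arginine and lysine carrier, and Slc17a7, a vesicular glutamate transporter of mature neurons.

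**Figure D1:**
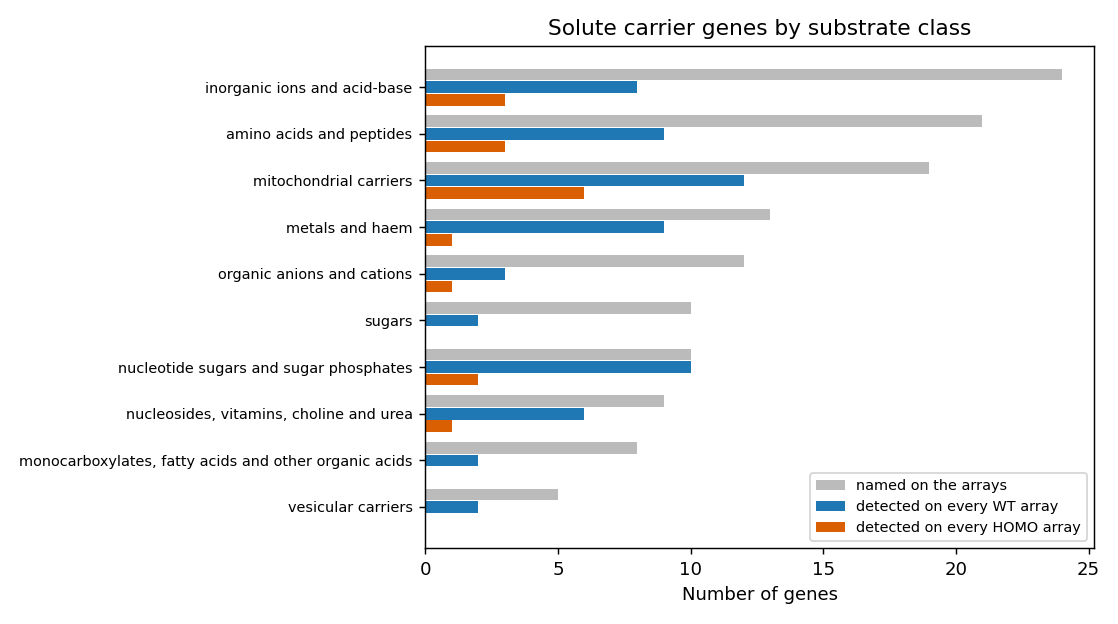
Number of solute carrier genes (horizontal axis) by substrate class: named on the arrays (grey), detected on every WT array (blue) and detected on every HOMO array (orange), with 4 arrays a group. All 10 nucleotide sugar and sugar phosphate carriers were detected on every WT array and 2 of them on every HOMO array, and no sugar, vesicular or monocarboxylate and organic acid carrier was detected on every HOMO array.

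The WT arrays differed among themselves. For the 65 carriers detected on every WT array the coefficient of variation of intensity had a median of 16.6%, the same as over all 4508 named genes detected there, and ran from 1.33% for Slc4a3 to 71.9% for Slc10a4. WT replicate 2 was the brightest array for 32 of the 65 (49.2%), where the share over named genes was 52.8%. Among the most variable members were Slc10a4, Slc1a1, Slc30a3 and Slc37a4, which were picked here after their values were seen. Slc10a4, a protein of synaptic vesicles related to bile acid carriers, had intensities of 167.5, 330.7, 69.2 and 91.3 in WT replicates 1 to 4. Slc30a3, which loads zinc into synaptic vesicles, had 625.9, 858.1, 329.9 and 361.7. Slc1a1, a glutamate carrier of neurons, had 55.1, 97.0, 33.5 and 45.4. In each of them replicate 2 was highest and replicate 3 lowest, as was the sum of the neuron markers at 7939, 12247, 3369 and 3891. The mean intensities of the whole arrays, 340.2, 364.1, 285.2 and 326.1, had the same order over a narrower range. After normalization replicate 2 was still highest for all 3, with levels of 6.42 for Slc10a4, 7.26 for Slc30a3 and 5.54 for Slc1a1 against 5.48, 6.66 and 5.05 in replicate 3. Slc37a4, the glucose 6-phosphate carrier of the endoplasmic reticulum, was brighter in replicates 1 and 2 (165.8 and 167.7) than in replicates 3 and 4 (87.4 and 82.3). Slc35d1, a Golgi and endoplasmic reticulum carrier of nucleotide sugars needed for chondroitin sulfate, was level, at 72.0, 67.8, 72.5 and 76.4.

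**Figure D2:**
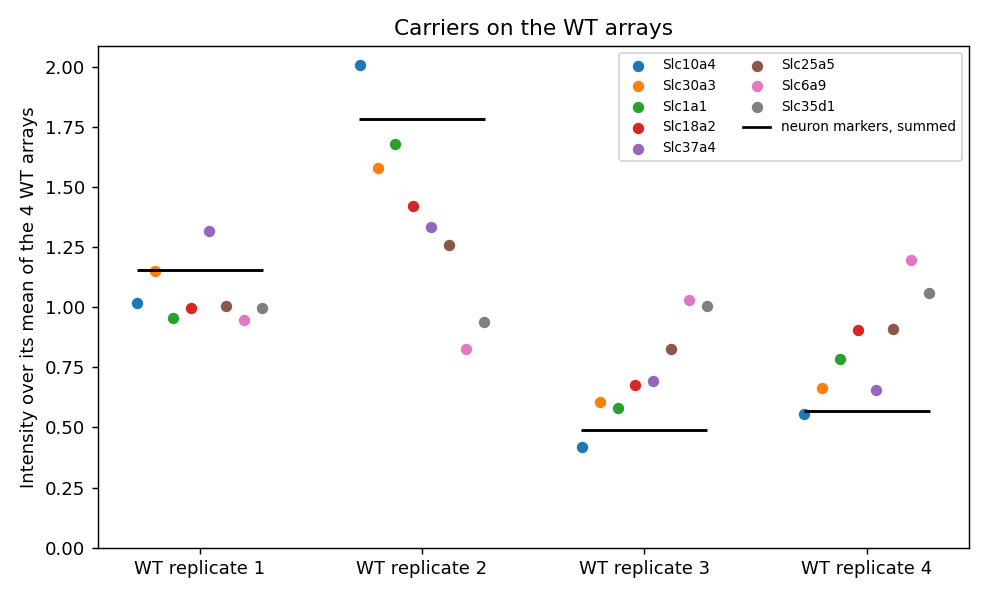
Intensity of 8 carriers divided by the mean of the 4 WT arrays (vertical axis, no unit) for each WT replicate (horizontal axis), with the same ratio of the summed neuron markers as a black bar. Slc10a4, Slc30a3, Slc1a1 and Slc18a2 are highest in replicate 2 and lowest in replicate 3, like the neuron markers and the mean array intensity (364.1 and 285.2), for which the ratios are not corrected, whereas Slc6a9 and Slc35d1 are lowest in replicate 2.

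In HOMO, 17 of the 116 carriers (14.7%) were detected on every array, against 21.6% of named genes. Carriers detected on all 8 arrays numbered 15 (12.9%, against 20.4%), and 33 (28.4%, against 27.9%) were detected on every WT and no HOMO array. The last share was near that of all genes. A further 8 carriers (6.9%, against 4.92%) were detected on more HOMO than WT arrays, and 32 on no array.

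The comparison of HOMO with WT asked which carrier transcripts differ between cells with and without Sox9. Of the 75 kept carriers, limma called 18 (24%) higher and 36 (48%) lower in HOMO (adjusted p up to 0.05), and 21 were not called. Over all named genes kept, 22.5% were called higher and 50.9% lower, so the carriers' shares were near the background. The median log2 difference, HOMO minus WT throughout, was -0.59 for the carriers and -0.50 for all named genes. The groups did not overlap for 53 of the 75, against 69.2% of named genes. How many carriers were called depended on the scaling of the arrays: centring each array on its median, like the authors' normalized values, gave 10 higher and 56 lower. That scaling also moved the median difference of all kept probes, from -0.437 to -1.834. The share of named genes called under it was not counted. Under all 6 scalings tried, 25 carriers were called lower (background 36.8%) and 10 higher (background 9.88%).

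**Figure D3:**
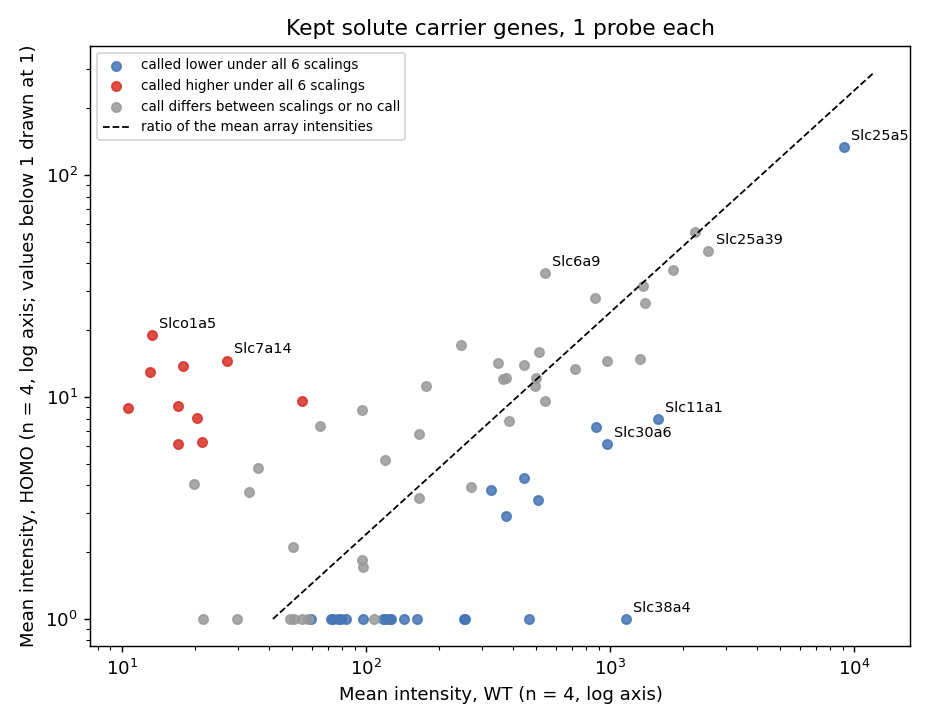
Mean intensity of the 75 kept carriers in HOMO (vertical, log axis, values below 1 drawn at 1) against WT (horizontal, log axis), n = 4 arrays each. The dashed line is the ratio of the mean array intensities, 41.7. Carriers called higher under all 6 scalings (red) have WT means of at most 55.0 and those called lower (blue) of at least 59.8.

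The sets differed in WT brightness. The 10 called higher had WT mean intensities of at most 55.0, and the 25 called lower of at least 59.8. As measured, before any scaling, the WT mean exceeded the HOMO mean for 74 of the 75 kept carriers, and every WT array exceeded every HOMO array for 69. The WT arrays were 41.7 times brighter as a whole. These counts were not made over all named genes, so nothing particular to carriers is read from them. "Higher" therefore means a higher place within the HOMO arrays, and Slco1a5 was the exception whose mean intensity was also higher.

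The 15 carriers detected on all 8 arrays have a measured level in both groups. Of these, 7 were called higher, 1 lower and 7 not called, where among all 1449 named genes detected on all 8 arrays 46.4% were called higher and 20.6% lower. Over all named genes kept the shares were 22.5% and 50.9%. Asking for detection on every HOMO array thus itself shifted the calls towards higher, and no direction is read from this set. The levels of the 2 groups did not overlap for 8 of the 15, against 64% of those genes. WT intensity exceeded HOMO intensity by 1.86 to 67.9 times, with a median of 40.3, and by a median of 29.2 over all 5101 probes detected on all 8 arrays.

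Slc25a5, the ADP and ATP exchanger of the inner mitochondrial membrane, was the member called lower. Its intensity was 9145, 11425, 7517 and 8258 in WT and 200.3, 96.8, 71.0 and 167.1 in HOMO. The groups lay apart, and its normalized level differed by -0.62 (SE 0.13, adjusted p = 0.00189, limma), with a call in the same direction under all 6 scalings. The other mitochondrial carriers detected on all 8 arrays were Slc25a22, a glutamate carrier, Slc25a27, an uncoupling protein, Slc25a39, which imports glutathione, and Slc25a44, which imports branched-chain amino acids. Slc25a44 was called higher, by 0.99 (SE 0.11, adjusted p = 5.49e-05), with intensities of 213.8 to 276.4 in WT and 13.0 to 21.7 in HOMO. That direction turned under median centring and in the authors' values (-0.36, not called). Slc25a39, known for its part in haem synthesis, was not called (-0.12, adjusted p = 0.516), and median centring, scaling by the median absolute deviation and centring on the probes detected on all 8 arrays each called it lower (-2.42 to -0.71). Its HOMO intensities were 67.6, 38.4, 20.1 and 56.3, and the summed intensities of the 4 joined erythroid markers were 776.0, 297.3, 36.5 and 661.8 on the same arrays. The mean intensities of those arrays, 10.5, 6.55, 5.21 and 9.26, had the same order.

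Slc6a9, the glycine transporter GLYT1, was called higher by 1.24 (SE 0.17, adjusted p = 1.81e-04). Its intensities were 511.5, 447.7, 558.5 and 646.8 in WT and 54.6, 24.4, 19.2 and 46.7 in HOMO, a ratio of 14.9. Levels on the HOMO arrays (7.87 to 8.44, log2) lay above those on the WT arrays (6.67 to 7.13). The difference turned to -0.50 under median centring and in the authors' values, without a call, and stayed a call of higher under the other scalings. Slc7a14, a lysosomal protein of the cationic amino acid transporter family, was called higher by 2.21 (SE 0.18, adjusted p = 6.74e-06) under all 6 scalings. Its intensities were 32.8, 22.2, 23.2 and 30.3 in WT and 14.6, 17.1, 14.5 and 12.2 in HOMO, so this dim probe was only 1.86 times brighter in WT where the median carrier was 40.3 times brighter. The WT levels of Slc7a14, 4.75 to 4.93, lay just above the lowest level of a detected WT probe (mean 4.70). The size of its difference is therefore uncertain.

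The bicarbonate carriers Slc4a2 and Slc4a3, both anion exchangers, were called higher by 0.49 (SE 0.15, adjusted p = 0.0171) and 0.42 (SE 0.13, adjusted p = 0.0154), and both were called lower under median centring, by -1.52 and -1.14. Their sodium-coupled relative Slc4a7 was not called (-0.13, adjusted p = 0.461) and was called lower under median centring (-1.86). The zinc importer Slc39a1 was called higher by 0.29 (SE 0.12, adjusted p = 0.0451), a call lost without any 1 of 5 arrays (adjusted p 0.0625 to 0.119 without WT replicate 1 or 2 or HOMO replicate 1, 3 or 4) and turned by median centring (-1.49). Slc35e3, a relative of the nucleotide sugar carriers, was called higher by 0.39 (SE 0.11, adjusted p = 0.0115) with a ratio of 40.3, and was called lower under median centring (-1.87). The sign of these 4 higher calls depended on the scaling. Not called were Slc44a2, a choline transporter-like protein (0.13, adjusted p = 0.405), Slc35a4 (0.05, adjusted p = 0.664) and Slc66a2 (0.17, adjusted p = 0.324), and all 3 were called lower under median centring (-2.16, -2.22 and -2.02). Slc66a2 was called higher without HOMO replicate 2 (0.34, adjusted p = 0.028).

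**Figure D4:**
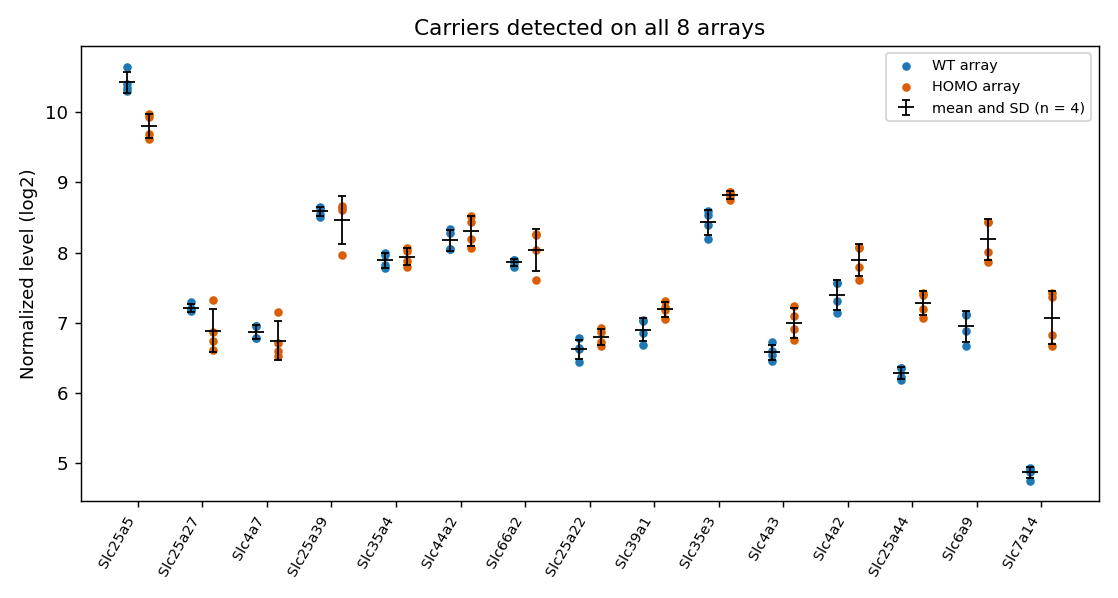
Normalized log2 level (vertical axis) of the 15 carriers detected on all 8 arrays, ordered from the lowest to the highest HOMO minus WT difference: 4 WT arrays (blue), 4 HOMO arrays (orange), with mean and SD (n = 4). Slc25a5 is lower on every HOMO array, and Slc6a9 and Slc7a14 are higher on every HOMO array, whereas Slc35a4, Slc44a2 and Slc25a39 overlap.

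The 33 carriers detected on every WT and no HOMO array have only a bound in HOMO. Of these, 27 were called lower, 1 higher and 5 not called, where of the 1982 named genes with the same detection 83.4% were called lower and 1.01% higher. Such genes passed the filter through WT alone, so their direction was largely set by how they were chosen. The bound sets the WT level against the lowest level of any detected probe on each HOMO array (mean 6.24 in log2, and 4.70 on the WT arrays). It exceeded 1-fold for 6 carriers. The other 21 called lower had WT levels no higher than that of the dimmest detected HOMO probes, so their fall has no measured size.

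Slc38a4, a carrier of neutral and cationic amino acids that is imprinted in mice, was at least 2.71-fold lower. Its WT intensities were 1084, 1214, 944.5 and 1412, and on the HOMO arrays all were below 0 (-4.0 to -1.3). The difference in level was -3.29 (SE 0.11, adjusted p = 2.31e-07), and a dimmer second probe, not detected in HOMO either, was also called lower (-1.13, adjusted p = 8.33e-04). Slc39a10, a zinc importer, was at least 1.56-fold lower, from 518.1, 642.3, 421.5 and 450.7 in WT to 2.6 to 4.7 in HOMO (adjusted p = 7.13e-07). Slc25a36, which carries pyrimidine nucleotides into mitochondria, was at least 1.5-fold lower, from 448.7, 455.6, 476.3 and 490.2 to at most 1.2 (adjusted p = 4.27e-07). These 3 were called lower under all 6 scalings, of which median centring and the authors' values gave equal differences, and without any 1 array. They passed the filter through WT alone, and 83.4% of named genes with that detection were called lower. The repeated calls therefore are no further support for the direction. Slc45a4, of a sugar carrier family, was at least 1.31-fold lower (329.9 to 409.7 in WT, adjusted p = 3.94e-04). Slc8a1, the sodium and calcium exchanger, was at least 1.04-fold lower (215.5 to 302.2 in WT, adjusted p = 1.01e-06).

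Of 18 carriers listed for known roles in the skeleton, 3 were joined, so most were not assessed. Slc35d1, whose loss in mice is known to cause a skeletal dysplasia, was called lower under all 6 scalings without a bound (-1.12, SE 0.09, adjusted p = 5.93e-06), and its HOMO intensities were all below 0. Slc35a3, the Golgi carrier of UDP-N-acetylglucosamine that is mutated in a vertebral malformation of cattle, had 49.2, 57.8, 48.8 and 47.5 in WT and -3.2 to 3.2 in HOMO. It was called lower (-0.55, SE 0.15, adjusted p = 0.00744) without a bound, but not under 3 of the scalings, and its sign turned under centring on probes detected on all 8 arrays (0.10). Slc39a14, a carrier of zinc, iron and manganese, was detected on 1 WT and no HOMO array, at 10.2 to 19.3 in WT. Slc39a8 was among the genes that could not be joined, and no row that could be its own was detected on any array.

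Partners of the carriers were either called lower or not called, and none was called higher. Of 6 joined, 5 were kept, of which 2 were called lower (background 50.9%) and 3 not called. Both lower calls fell on genes detected on every WT and no HOMO array, a set in which 83.4% went the same way. With 5 members nothing particular to the partners is read from this. Emb, the chaperone embigin of the monocarboxylate carriers, had 252.6 to 409.7 in WT, was detected on no HOMO array and was at least 1.20-fold lower (adjusted p = 5.81e-07). Papss2, which makes the active sulfate that follows sulfate uptake, had 120.7 to 199.9 in WT and was called lower without a bound (-1.57, SE 0.12, adjusted p = 3.92e-06). Ldha (0.24, adjusted p = 0.0959) and Ldhb (-0.19, adjusted p = 0.134), lactate dehydrogenase subunits, and Atp1b1, a sodium pump subunit (-0.66, adjusted p = 0.148), were not called, and were called lower under median centring.

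Metal carriers had 6 of 9 kept members called lower, all 6 under every scaling, and 1 called higher, where 50.9% of named genes were called lower, 36.8% under every scaling, and 22.5% higher. With 9 members nothing particular to the class is read from this. Besides Slc39a10 they included Slc30a6, a zinc carrier of the Golgi, with 1058, 1058, 811.4 and 975.7 in WT and 6.0, 3.6, 9.3 and 5.7 in HOMO, detected on 1 HOMO array (-1.74, SE 0.28, adjusted p = 4.94e-04). Slc11a1, the phagosomal metal carrier of macrophages known as Nramp1, had 1627, 1311, 1454 and 1921 in WT and 11.6, 4.6, 2.0 and 13.7 in HOMO. Its brightest probe was called lower (-2.11, SE 0.40, adjusted p = 0.00121), whereas its second probe, detected on all 8 arrays at a mean of 37.6 in WT and 20.6 in HOMO, was called higher (2.62, adjusted p = 1.22e-05). Its direction therefore rests on the probe. The joined macrophage markers Csf1r and Lyz2 were each detected on 1 WT and no HOMO array, Cd68 on 3 WT arrays, and their summed intensity was -0.7 to 84.3 in WT and -13.1 to 1.4 in HOMO. Slc30a3 did not pass the test (-0.60, adjusted p = 0.0927), and was called lower without HOMO replicate 1 (-0.84, adjusted p = 0.0396), under median centring and in the authors' values (-2.34) and when scaled by the median absolute deviation (-1.01, adjusted p = 0.0224).

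Of the 10 kept nucleotide sugar and sugar phosphate carriers, 6 were called lower, 1 higher and 3 not called, near the 50.9% of named genes called lower. Slc35e2 had 909.1, 1204.0, 512.4 and 886.1 in WT and 4.9 to 11.7 in HOMO, and was called lower under all scalings (-1.39, SE 0.24, adjusted p = 6.72e-04). Of the mitochondrial carriers, 4 of 15 were called lower, 3 higher and 8 not called. Of the amino acid and peptide carriers, 5 of 10 were called higher and 4 lower. Among named genes 22.5% were called higher and 50.9% lower. With 15 and 10 members nothing particular to either class is read from this. Among the 5 higher calls, Slc7a2 and Slc7a4 were detected on no HOMO array, and Slc36a4, Slc6a9 and Slc7a14 on at least 3. Slc1a1 was called lower (-0.79, SE 0.12, adjusted p = 3.70e-04), but not under 2 scalings, and without a bound.

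Organic anion carriers went both ways. Slco3a1, a prostaglandin and thyroid hormone transporter, had 148.4, 232.3, 137.5 and 133.3 in WT and no HOMO value above 0. It was called lower (fitted difference -1.60, SE 0.10, adjusted p = 1.73e-06), as was its second probe (-1.41, adjusted p = 3.34e-06), but neither probe was detected in HOMO and the fall has no bound. Slco5a1, at 16.7 to 26.5 in WT, was called lower by -0.34 (SE 0.10, adjusted p = 0.0122) without a bound, but its sign turned under 3 scalings and it was called higher when centred on the probes detected on all 8 arrays (0.81). Slc22a23, an orphan of the organic ion family, had 1524, 1408, 1184 and 1194 in WT and 18.6, 13.3, 3.2 and 24.4 in HOMO. It was not called (-1.05, SE 0.46, adjusted p = 0.0672) and was called lower without HOMO replicate 3 (-0.57, adjusted p = 0.0201), without HOMO replicate 4 (-1.45, adjusted p = 0.0271) and under the 5 other scalings.

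Slco1a5, a rodent carrier of bile acids and steroid conjugates, was called higher by 2.88 (SE 0.19, adjusted p = 1.76e-06) under all 6 scalings. Its intensities were 13.7, 3.0, 18.4 and 18.3 in WT, where it was detected on 2 of 4 arrays, and 17.2, 18.1, 20.5 and 20.3 in HOMO, where it was detected on every array. The intensities overlapped between the groups, whereas the normalized levels did not (4.44 to 4.76 in WT, 7.10 to 8.01 in HOMO). The same pattern of a nearly equal intensity on dim and bright arrays was seen in others called higher under all scalings. Slc25a40, a mitochondrial carrier, was detected on 2 WT arrays and every HOMO array. It had 15.8 to 20.1 in WT and 9.5 to 16.7 in HOMO (2.24, SE 0.23, adjusted p = 3.00e-05). Its WT levels (4.65 to 4.74), like those of Slco1a5, lay around the lowest level of a detected WT probe (mean 4.70). The size of neither difference is therefore measured. Slc28a2, a nucleoside carrier, was detected on no WT array and 3 HOMO arrays, at 2.9 to 14.4 and 8.4 to 9.9, so its WT level is not measured and no fold is given. Slco1a5, Slc25a40 and Slc28a2 would not have passed the filter on WT arrays alone. Their direction was therefore largely set by how they were chosen, and the calls under all scalings are no further support for it. Of the 10 carriers called higher under all scalings, 8 were detected on fewer than 4 WT arrays, and WT and HOMO intensities of 6 overlapped. Not all were detected on more HOMO arrays, as were Slc16a10, Slc25a31, Slc25a40, Slc28a2 and Slco1a5. Slc7a2 was detected on 3 WT and no HOMO array, and Slc2a13 and Slc5a3 on 2 WT and 1 HOMO array each. Slc36a4 was detected on 4 WT and 3 HOMO arrays, and Slc7a14 on all 8. The same counts were not made over all named genes.

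Among the remaining classes, the vesicular monoamine transporter Slc18a2 was called higher by 0.70 (SE 0.21, adjusted p = 0.0129), with 96.4, 137.0, 65.2 and 87.4 in WT and 7.1, 7.9, 10 and 9.9 in HOMO. The levels overlapped, and the difference was 0.08 without a call under median centring. Its relative Slc18b1, a vesicular polyamine transporter, was called lower under all scalings (-1.32, SE 0.35, adjusted p = 0.00825). The folate carrier Slc19a1, at 358.2 to 413.8 in WT and 6.2 to 9.5 in HOMO, was called lower by -0.54 (SE 0.10, adjusted p = 0.00147), and not when centred on the probes detected on all 8 arrays (-0.43, adjusted p = 0.0645). The riboflavin carrier Slc52a2 was called lower (-1.08, SE 0.40, adjusted p = 0.0344), a call that ended without any 1 of 6 arrays, namely each WT array and HOMO replicates 2 and 3 (adjusted p 0.0663 to 0.0857). Slc16a6, a monocarboxylate carrier family member that exports ketone bodies in zebrafish liver, and Slc2a8, an intracellular glucose carrier, were called lower under all scalings without a bound (-1.18 and -1.10). Slc10a4 was called lower (-0.68, SE 0.27, adjusted p = 0.0443) without a bound, a call lost without WT replicate 1 or 2 or HOMO replicate 1 or 2 (adjusted p 0.0982 to 0.117) and under 3 other scalings. Of the 2 genes that carry the name only, Slc9a3r1 was called lower under all scalings without a bound (-1.44, SE 0.10, adjusted p = 3.02e-06). Slc7a6os was not called (-0.62, adjusted p = 0.0571), and was called lower without HOMO replicate 1 (-0.92, adjusted p = 0.00512) and under the 5 other scalings. Slc25a27 likewise was not called (-0.32, adjusted p = 0.0855) and was called lower without HOMO replicate 1 (-0.50, adjusted p = 0.00413) and under 4 of the other scalings (-2.28 to -0.57).

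**Figure D5:**
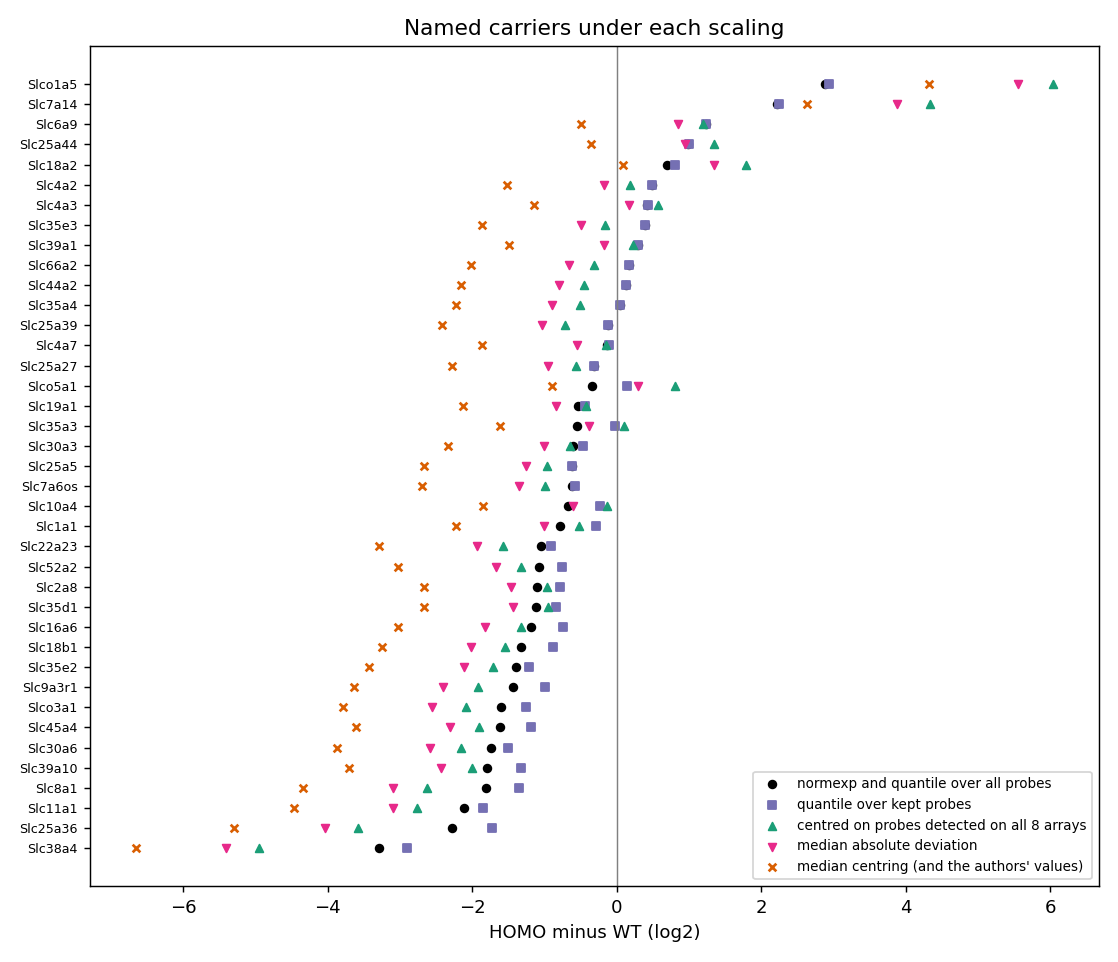
HOMO minus WT difference (horizontal axis, log2) of 39 kept carriers (vertical axis; those named by the rule in the methods and reported) under each scaling, each marker a fitted difference from 4 WT and 4 HOMO arrays. Median centring, which gives the same differences as the authors' normalized values, lies leftmost except, among those plotted, for Slco1a5 and Slc7a14. Slc6a9, Slc25a44, Slc4a2, Slc4a3, Slc35e3 and Slc39a1 cross 0, while Slc38a4 and Slc25a36 stay below and Slco1a5 and Slc7a14 above 0 under every scaling.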

How the data were processed

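Total RNA of sorted cells was measured on 8 arrays, 4 WT and 4 HOMO, grouped by the sample titles. GenomeStudio, of unstated version, produced the background-subtracted intensity values that the authors deposited, which reach below 0. A column titled detection p-value, also deposited, runs towards 1 for bright probes and was therefore taken as 1 less the p. The second deposited table gives normalized log2 values. Differences within it equalled those obtained by setting a floor of 1 on the intensities and centring log2 values on each array's median.

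Genes were named from zero-padded NCBI gene identifiers in the probe names (82.6% matched the RefSeq gene table of mouse). The tables were joined by equal rows of 8 values. Limma 3.58.1 (R 4.3.3) was used for normexp correction from the detection values (offset 16), quantile normalization over all probes and log2 transformation. Probes with a detection value above 0.95 on at least 3 arrays were kept, without controls (21002 probes). WT and HOMO were compared with lmFit and eBayes of limma, two-sided, and p-values were adjusted over every kept probe by the Benjamini-Hochberg method. Python 3.11.15 with numpy 2.4.6, pandas 2.3.3 and matplotlib 3.10.9 served for tables and figures. Precision is limited by the number of arrays. The limma comparison was tried on simulated normalized levels with known differences and the spread of the WT arrays. Dimmer HOMO arrays, detection and scaling were not simulated, so that trial says nothing about them.

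Alternatives were other scalings (median centring, the authors' values, the median absolute deviation, taken over kept probes because it was 0 over all probes on 3 HOMO arrays, centring on probes detected on all 8 arrays, and quantile normalization over kept probes, added after the data were seen), an offset of 50, other filters, a detection cut of 0.99, another choice of probe, the methods' analysis of variance, a replicate block and leaving out each array. Together with the setting reported, these scalings make 6. Scaling shifted the median difference of all kept probes from -0.437 to between -1.834 and -0.103. The members, classes and gene lists were chosen with earlier results of these data known. Named carriers were Slco1a5, those on the skeletal, neural and erythroid lists, the 3 brightest in WT of each class, those detected on all 8 arrays with the largest called differences, those with the largest bound, and the kept carrier partners. Others named were picked after their values were seen. The values of some carriers are not reported here.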

Additional observations from a re-analysis of the deposited data

Results flagged for a closer look

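In 3 of 82 groups of 4 arrays tested over 41 genes, 1 array's normalized level stood far from the other 3, where chance gives about 1 in 20. Slc18b1 in HOMO replicate 2 was at 6.42 with the others at 4.76 to 4.79, an intensity of 9.0. Slc25a39 in HOMO replicate 3 was at 7.96 with the others at 8.6 to 8.67, and without that array its difference was 0.05 instead of -0.12. Slc38a4 in WT replicate 4 was at 7.92 with the others at 7.58 to 7.63.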

How the results depend on the processing

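Carriers called higher (18), called lower (36) and their median difference (-0.59) became 10, 56 and -2.16 under median centring and in the authors' values alike. The median difference of all kept probes moved from -0.437 to -1.834 there. Shares of named genes called under single alternative settings were not counted. The median of the carriers was -0.89 when scaled by the median absolute deviation and -0.26 with quantile normalization over kept probes. Without a filter on dim probes 30 were called higher with a median of -0.05, and with probes detected on all 8 arrays only, 7 were higher and 1 lower of 15, with a median of 0.18. Fewer genes enter that last setting. At a detection value above 0.99, carriers detected on every HOMO array numbered 10 instead of 17. Without 1 array at a time, 14 to 18 were called higher and 33 to 39 lower, with medians of -0.72 to -0.51, and 65 to 66 were detected on every WT array, 17 to 23 on every HOMO array and 33 to 36 on every WT but no HOMO array.

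The sign of 13 named carriers turned under at least 1 setting. Under median centring and in the authors' values the differences were -0.36 for Slc25a44, -2.22 for Slc35a4, -1.87 for Slc35e3, -1.49 for Slc39a1, -2.16 for Slc44a2, -1.52 for Slc4a2, -1.14 for Slc4a3, -2.02 for Slc66a2 and -0.50 for Slc6a9. Scaled by the median absolute deviation they were -0.89 for Slc35a4, -0.50 for Slc35e3, -0.18 for Slc39a1, -0.80 for Slc44a2, -0.17 for Slc4a2, -0.66 for Slc66a2 and 0.30 for Slco5a1. Centred on probes detected on all 8 arrays they were 0.10 for Slc35a3, -0.51 for Slc35a4, -0.16 for Slc35e3, -0.45 for Slc44a2, -0.32 for Slc66a2 and 0.81 for Slco5a1, and with quantile normalization over kept probes 0.14 for Slco5a1. With the probe detected on the most arrays Slc11a1 was at 2.62. Without 1 array at a time Slc25a39 ranged from -0.19 to 0.05. The cause was not tested.

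Replicate numbers did not pair the samples: deviations of same-numbered arrays correlated at -0.0258 to 0.0201 and no array correlated best with its own number. With the replicate number as a block, 17 carriers were called higher and 36 lower, and among the 40 named carriers fitted, the calls of Slc10a4 and Slc39a1 ended. The methods' test gave 18 and 34. Dim HOMO arrays limit what can be measured: a carrier below a level of about 6.24 there goes undetected.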
